A study of Mus musculus with 48 samples.

Results

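The elements described here carry the class IPC and the label desc in the name of a massively parallel reporter assay table. They were chosen by those names alone, 1132 of 11709 elements in all. The class also holds 734 elements labelled asc and 1125 labelled unc, and the table holds 996 scrambled controls. The sources used here do not say what the 3 labels stand for. The working name of the set reads desc as descending. Reporter activity over age is described below, which cannot settle what the label refers to.

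In the assay, short DNA elements sit in reporter plasmids, and the transcripts driven by each one are set against the plasmid DNA recovered from the same cells. Activity therefore reads what an element does outside its own locus. In the developing cortex, neural stem cells (NSC) divide along the ventricle and carry the transcription factor Pax6. Their daughters, the intermediate progenitors (IPC), switch on Tbr2 (Eomes), divide further and give rise to neurons of the upper and deep layers. Elements that work more strongly in one of these cell types are candidate enhancers, regulatory DNA that raises transcription of a gene.

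All embryos were C57BL/6JRj mice. Plasmids were electroporated in utero into the somatosensory cortex on 1 of 5 embryonic days (E12 to E16). The cortex was dissociated 24 h after that, which gives the collection ages E13 to E17. Cells were fixed, stained for Pax6, Eomes and Tubb3, and sorted into Pax6+ NSC and Tbr2+ IPC. The 48 libraries were a DNA and an RNA library of 24 biological samples, with 3 samples of either cell type at E14 and at E15 and 2 at each of the other ages. The sort was the identity check for the cells, since no endogenous gene was measured here. Samples were already combined in the table, which gives an element 10 activities, 1 for each pairing of a cell type with an age, called columns below. The spread between samples is thus unknown, and no difference between cell types, ages or labels was tested. The depth behind each value is unknown as well. The elements carry no coordinates, gene names or sequences in the files used, so they are named by the last part of their name. Such a number is unique among the desc elements but can recur under the other labels.

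Activity is given in 2 forms. For single elements it is the multiple of the scrambled median of the same column, so that 1 is the level of a typical scrambled control. For means it is the log2 of that multiple plus a pseudocount of 0.1, minus the scrambled mean of the column, so that 0 is the average control. A standard error (SE) is over elements, not over animals. All 10 values were present for 1061 of the 1132 elements, 1 element had none, and a column lacked between 9 and 46 of them.

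In IPC columns the desc elements stood above the scrambled controls on average at every age, by 0.12 to 0.37 on the log2 scale, and the mean was highest at E17. Their means from E13 to E17 were 0.18 ± 0.04 (SE), 0.12 ± 0.03, 0.19 ± 0.03, 0.21 ± 0.04 and 0.37 ± 0.04. In NSC columns they were 0.04 ± 0.05, 0.10 ± 0.03, 0.09 ± 0.03, 0.12 ± 0.03 and 0.07 ± 0.02 in the same order. The NSC mean at E13 lay within its own error of the controls. In neither cell type was the E17 mean below the E13 mean. The highest IPC mean fell at E17 for the other sets as well, at 0.38 for asc, 0.35 for unc and 0.20 for all other non-scrambled elements.

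**Figure D1:**
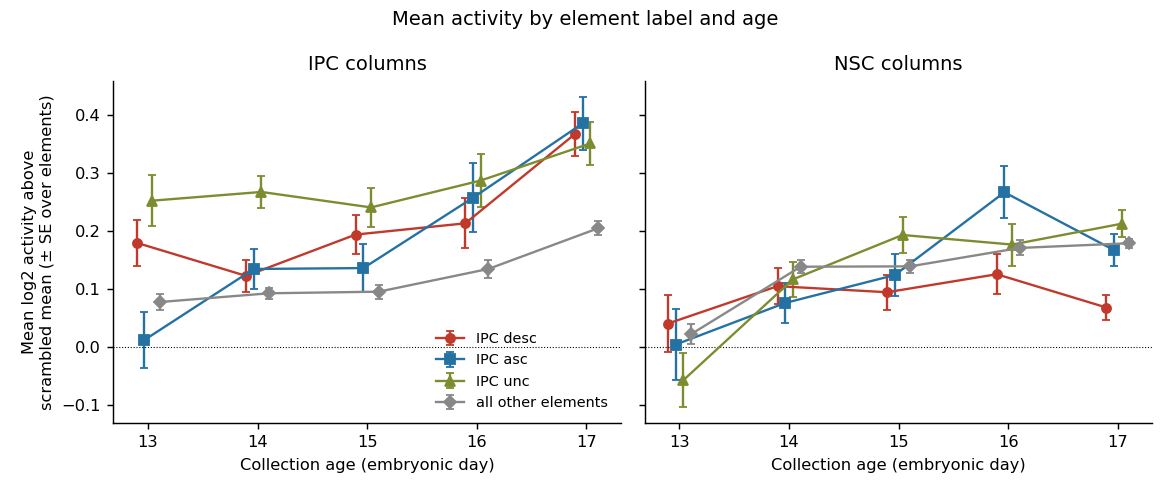
Mean log2 activity above the scrambled mean (vertical axis) against collection age in embryonic days, in IPC columns (left) and NSC columns (right). Points are means over elements with SE over elements for the desc, asc and unc elements of the IPC class and for all other non-scrambled elements. The desc mean in IPC columns lies between 0.12 and 0.37, and in NSC columns it stays between 0.04 and 0.12. In IPC columns every set shown has its highest point at E17.

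The shift of the mean was small beside the spread among elements. In IPC columns the SD over desc elements was 0.94 (E14) to 1.41 (E16), against 0.77 to 1.27 among scrambled controls at the same ages. The typical desc element was close to a control. Its median activity in IPC columns was 1.11, 1.06, 1.16, 1.14 and 1.28 times the scrambled median from E13 to E17, and in NSC columns 1.02, 1.06, 1.08, 1.10 and 1.06 times. The upper part of the distribution moved further. At E17 in IPC, the 95th percentile was 6.30 times the scrambled median for desc elements and 3.49 times for the controls. At E13 in IPC these values were 8.74 and 6.13, and at E14 they were 3.25 and 2.39. In NSC the upper ends lay nearer together, at 9.46 against 8.0 at E13 and 2.35 against 2.25 at E17. The lower ends hardly separated, with 5th percentiles of 0.365 and 0.338 at E17 in IPC. The wider upper end was not confined to the desc label. All other non-scrambled elements had 95th percentiles of 5.23, 8.54 and 3.27 in IPC at E17, E13 and E14. For unc elements they were 5.87, 11.8 and 4.04, above the desc values at E13 and E14.

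**Figure D2:**
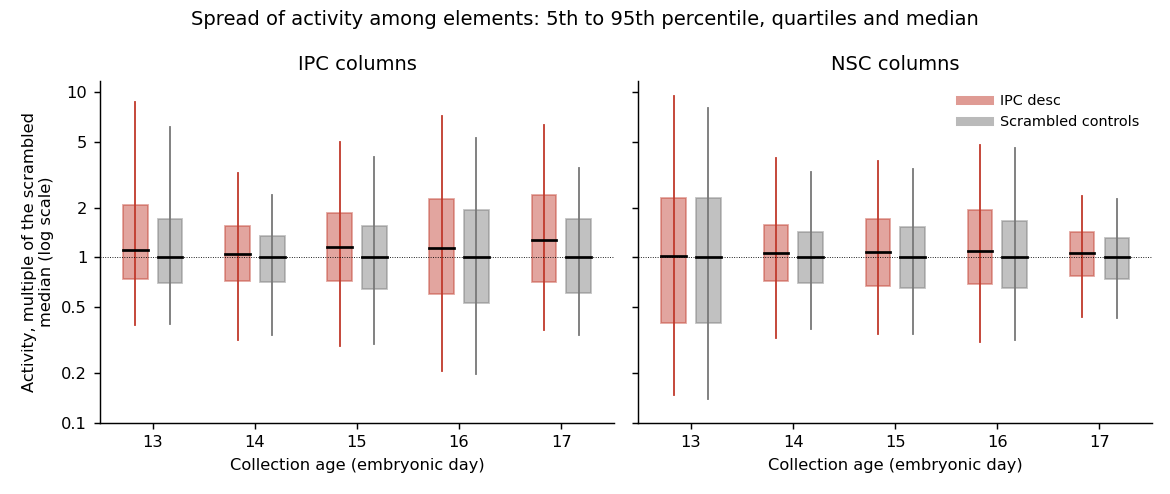
Activity as a multiple of the scrambled median (vertical axis, log scale) against collection age in embryonic days, for desc elements and scrambled controls in IPC (left) and NSC columns (right). Whiskers run from the 5th to the 95th percentile of elements, boxes span the quartiles and the bar is the median. The upper whisker of desc elements in IPC at E17 reaches 6.30 against 3.49 for the controls, and both sets overlap widely in every column.

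Between the cell types, desc elements were on average more active in IPC at 5 of 5 ages. The difference of means, IPC minus NSC, was 0.14, 0.02, 0.10, 0.09 and 0.30 from E13 to E17, which averages 0.13 (0.21 in IPC against 0.09 in NSC). At E14 it was smaller than the SE of either mean. All other non-scrambled elements together averaged -0.01 for the same difference, with IPC higher at 2 of 5 ages. The other labels of the class gave 0.06 (asc, IPC higher at 4 of 5 ages) and 0.15 (unc, 5 of 5). Against all other elements, desc elements stood 0.09 higher in IPC columns, at 5 of 5 ages, and in NSC columns they stood -0.04 relative to them, higher at 1 of 5. The preference for IPC columns was therefore not confined to the desc label.

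Within the IPC class, the desc elements lay near the asc elements and below the unc elements in mean IPC activity. Desc minus asc averaged 0.03 over the IPC columns. From E13 to E17 it was 0.17, -0.01, 0.06, -0.04 and -0.02, so that only E13 gave a gap well beyond the SE of the means. Desc minus unc averaged -0.06 in IPC columns, with desc higher at 1 of 5 ages and the widest gap at E14 (-0.14). In NSC columns desc minus asc was -0.04 and desc minus unc was -0.04, each with desc lower at E15, E16 and E17 (-0.14 against asc at E16 and -0.14 against unc at E17).

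Change over age was described as the mean of E16 and E17 minus the mean of E13 and E14, called late minus early. For desc elements it was 0.14 in IPC and 0.02 in NSC columns. It was 0.25 and 0.18 for asc elements, 0.06 and 0.16 for unc elements, and 0.08 and 0.09 for all other non-scrambled elements. The desc values lay below the asc values in both cell types, by 0.11 in IPC and 0.15 in NSC on the log2 scale. In IPC columns desc minus asc was 0.17 at E13, -0.01 at E14, -0.04 at E16 and -0.02 at E17, so E13 gave most of that gap. In NSC columns it was 0.04, 0.03, -0.14 and -0.10 at the same ages. The desc late minus early value in NSC columns was -0.008 without E13 and -0.005 without E16, so no direction is given there. In IPC columns the desc late minus early value was 0.06 without E17 and 0.22 without E16, so E17 gave most of it. With 1 combined column at each age, an effect of age and an effect of a single column cannot be told apart.

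The order of ages was also counted element by element. In IPC columns, E13 and E14 both lay above E16 and E17 in 178 of 1071 desc elements (16.6%, Wilson 95% interval 14.5 to 19.0; intervals cover the counting of elements only). All non-scrambled elements had 16.5% and scrambled controls 16%. The reverse order, both late ages above both early ones, held in 223 (20.8%), against 19% of all elements, 25% of asc, 18.9% of unc elements and 17.6% of controls. In NSC columns the early-high order held in 159 of 1083 desc elements (14.7%), against 14.6% of all elements and 16% of controls. The late-high order held there in 203 (18.7%), against 19.3% of all elements and 17.2% of controls. The desc shares in both directions were near those of all elements. Among desc elements with all 5 IPC values, the highest value fell at E17 in 27.4% and at E13 in 18.9%, against 25.3% and 18.4% of all non-scrambled elements and 20.8% and 20.0% of the controls. In NSC columns the desc shares were 15.1% at E17 and 27.4% at E13, against 16.2% and 26.1% of all elements and 14.9% and 28.9% of the controls. Asc elements peaked at E17 in 30.0% and at E13 in 14.3% in IPC.

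The authors' deposited adjusted p-value sets an element against the column's scrambled controls, and one with p under 0.05 is called active below. The same threshold took in 6.16% to 15.7% of the scrambled controls themselves. In IPC columns 22.0% of desc elements were called at E13 (19.6% of all non-scrambled elements, 15.7% of controls). The desc share was 11.4% at E14 (11.3% of all, 6.66% of controls) and 16.1% at E15 (14.9% of all, 11.1% of controls). It was 17.3% at E16 (16.1% of all, 12.4% of controls) and 20.7% at E17 (18.7% of all, 10.3% of controls). The desc elements thus exceeded the controls in each IPC column, while they lay near the share of all elements, which their intervals took in at each age but E13, where the lower bound was 19.64%.

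In NSC columns the desc share called was 15.7% at E13 (15.3% of all elements, 13.3% of controls) and 13.3% at E14 (14.7% of all, 9.77% of controls). At E15 it was 10.6% (12.5% of all, 8.11% of controls) and at E16 17.9% (19.4% of all, 12.9% of controls). The E17 column stood apart, with 84 of 1123 desc elements called (7.48%, interval 6.08 to 9.17), against 13% of all elements, 11.4% of asc elements, 13.1% of unc elements and 6.16% of controls. At E17 the 2 cell types therefore differed most for the desc elements, with 20.7% called in IPC and 7.48% in NSC. The other sets differed the same way at E17, with 25.5% against 11.4% of asc and 22.1% against 13.1% of unc elements. All non-scrambled elements had 18.7% against 13%, and controls had 10.3% against 6.16%.

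**Figure D3:**
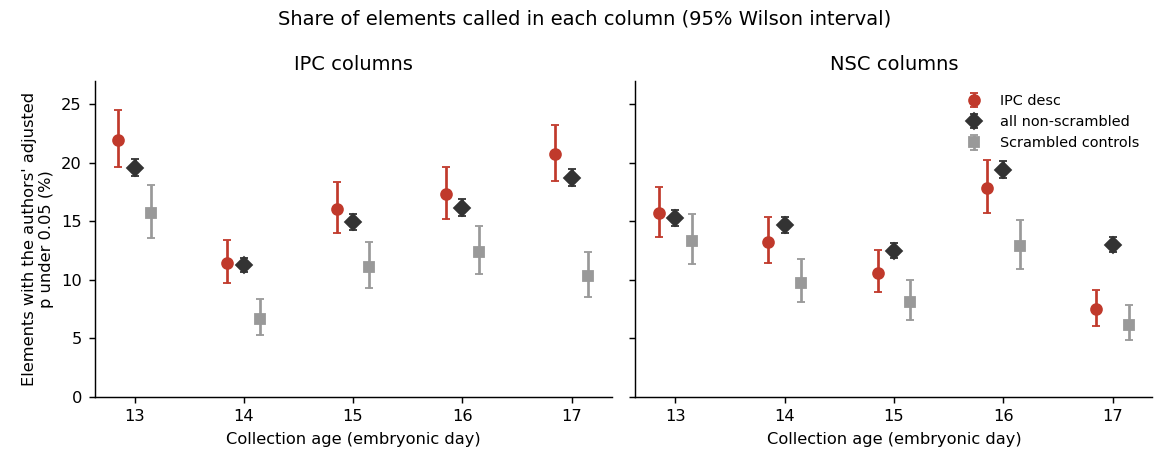
Share of elements with the authors' adjusted p under 0.05 (vertical axis, percent) against collection age in embryonic days, in IPC (left) and NSC columns (right), for desc elements, all non-scrambled elements and scrambled controls. Bars are 95% Wilson intervals over elements. Desc elements lie above the controls at every age in IPC columns, and at E17 in NSC columns their 7.48% lies below the 13% of all elements.

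Calls seldom repeated over ages. Of the 1132 desc elements, 633 were called in at least 1 IPC column (55.9%, against 53% of all elements) and 246 in at least 2 (21.7%, against 19% of all elements). In at least 3 of the 5 IPC columns 62 were called (5.48%, interval 4.30 to 6.96). That is near the 5% of all non-scrambled elements and above the 1.20% of controls, and it compares with 6.13% of asc and 9.07% of unc elements. In at least 3 of 5 NSC columns 39 were called (3.45%, interval 2.53 to 4.67), against 4.66% of all elements and 1.31% of controls. With 1 age left out and 3 of the other 4 columns still required, a count can only stay the same or fall, for any set of elements. The IPC count by that rule was 34, 41, 33, 43 and 39 without E13, E14, E15, E16 and E17. The NSC count was 13, 19, 15, 18 and 25 in the same order.

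Of the 62 elements called repeatedly in IPC, 22 had 0 NSC calls, 24 had 1, 10 had 2 and 6 had 3 or more. The 40 with at least 1 NSC call are 64.5% of them (interval 52.1 to 75.3), near the 63.6% of all non-scrambled elements called as often in IPC. Among all desc elements 46.6% had at least 1 NSC call, against 50.3% of all elements. These 6 are 0.530% of the desc elements, against 0.56% of all elements. All 5 IPC columns were called for 3 desc elements (0.265%, against 0.252% of all elements), IPC_573, IPC_623 and IPC_965. A call at one IPC age carried over to another age in 12.8% to 42.7% of cases, with a median of 22.8% over the 20 ordered pairs of ages. Of elements not called at the first age, a median of 16.9% were called at the second. These medians were 21.9% and 15.4% among all non-scrambled elements, near the desc values, and 12.3% and 10.9% among scrambled controls. From E13 to E14 in IPC, 53 of 241 called desc elements were called again (22.0%), against 71 of 851 uncalled ones (8.3%); among all non-scrambled elements the shares were 19.7% and 8.98%. From E13 to E16 the shares were 17.2% and 17.2%, which leaves no difference between elements called and not called at E13.

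Activity was also averaged over ages. An upper limit was set at the mean log2 activity over 5 columns that 2.5% of the scrambled controls exceed, 0.98 in IPC and 1.06 in NSC. In IPC, 121 of 1070 desc elements exceeded it (11.3%, interval 9.55 to 13.3), against 8.61% of all elements, 9.26% of asc and 15.2% of unc elements. In NSC, 40 of 1082 exceeded it (3.70%, interval 2.73 to 5.00), against 6.05% of all elements, 3.86% of asc and 5.95% of unc elements. By these limits the desc elements held more strong elements than the table as a whole in IPC and fewer in NSC. Both intervals leave out the share of all elements, which includes the desc elements. They cover the counting of elements only, not the spread between samples, so they are no test of the label.

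The mean difference IPC minus NSC of single elements leaned the same way. It lay above the upper scrambled limit of 1.22 for 74 of 1061 desc elements (6.97%, interval 5.59 to 8.67), against 5.15% of all elements. Of asc and unc elements, 4.83% and 7.79% exceeded this limit. The difference lay below the lower limit of -1.41 for 22 desc elements (2.07%, interval 1.37 to 3.12), against 3.01% of all elements, which lies inside that interval. Of asc and unc elements, 2.05% and 1.42% lay below it. Counting signs, 69 desc elements were higher in IPC at all 5 ages (6.50%), against 4.51% of all elements and 3.04% of controls. Higher in NSC at all 5 ages were 20 (1.89%), against 3.87% of all elements and 3.04% of controls. The asc and unc shares by these sign counts were 4.83% and 7.12% towards IPC, and 3.07% and 2.56% towards NSC. Across desc elements, mean IPC activity and mean NSC activity had a Spearman's rho of 0.24 (n = 1061), given as a description, against 0.21 among all non-scrambled elements, 0.29 among unc elements and 0.08 among 955 scrambled controls. Single columns went together only weakly, with rho of 0.003 to 0.21 between IPC ages and 0.02 to 0.14 between NSC ages. The points are the same elements in each column, and such weak values are no finding.

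**Figure D4:**
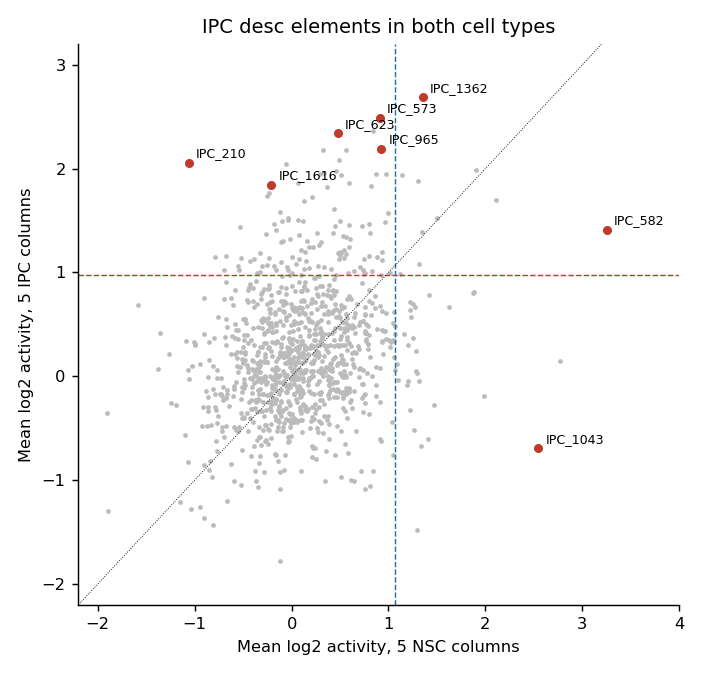
Mean log2 activity over the 5 IPC columns (vertical axis) against that over the 5 NSC columns (horizontal axis), with 1 point for each desc element that has all 10 values. Dashed lines are the limits that 2.5% of scrambled controls exceed (0.98 in IPC, 1.06 in NSC), the dotted line is equality, and 8 elements are labelled. Most points lie near 0 in both, and IPC_1043 and IPC_582 lie far to the right.

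The desc elements of highest mean activity in IPC were IPC_1362, IPC_573, IPC_1011, IPC_623, IPC_965, IPC_923, IPC_1448 and IPC_1332, with means of 2.69 to 2.08 on the log2 scale. They were picked by these values, which are a description. They came to their means in different ways. IPC_1362 stood at 105.8, 15.0, 6.20, 1.06 and 1.93 times the scrambled median in IPC from E13 to E17. Its NSC values were 10.1, 2.26, 2.65, 2.52 and 1.16 in the same order, so it was highest at E13 in both cell types. Without E13 its IPC mean was 1.77 in place of 2.69. The highest single scrambled controls stood at 461.9, 15.5, 28.9, 31.2 and 42.9 in IPC from E13 to E17. Each IPC value of IPC_1362 lay below the highest control of its column, while no control had a mean IPC activity above 2.079.

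IPC_623, IPC_965 and IPC_573 were the elements active in IPC at every age. IPC_623 stood at 10.8, 4.38, 4.02, 5.72 and 6.06 times the scrambled median in IPC from E13 to E17, and at 1.49, 0.636, 0.900, 2.91 and 2.83 in NSC. Its lowest IPC value lay above its highest NSC value. IPC_965 stood at 5.97, 4.03, 2.90, 9.78 and 5.66 in IPC and at 2.17, 2.5, 2.22, 2.68 and 1.18 in NSC, again without overlap. IPC_573 went from 19.4 at E13 through 9.23, 5.57 and 3.06 to 3.59 at E17 in IPC, and its NSC values of 1.76, 2.18, 2.93, 3.10 and 1.03 overlapped with these at E16. Leaving out any 1 age kept the IPC means of these 3 elements between 1.96 and 2.75.

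The other 4 varied more between ages in IPC than IPC_623 and IPC_965 did. IPC_1011 stood at 22.2 and 11.1 times at E13 and E14 in IPC and at 2.31 to 3.53 later. IPC_923 stood at 36.5 at E13 and 8.21 at E16, with 1.40 at E14. IPC_1448 stood at 17.4 at E13 and 9.48 at E17, with 2.31 to 3.35 between. IPC_1332 stood at 8.71 at E13 and 12.3 at E16, with 2.35 to 4.02 at the other ages. All 4 were called in 4 of 5 IPC columns and in 1 of 5 NSC columns.

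Elements with a steady preference for one cell type were taken among those that kept 1 sign over the 5 ages and had calls in at least 3 of 5 columns of the higher cell type. Towards IPC 18 of 1061 desc elements met this (1.70%, interval 1.08 to 2.67), against 1.4% of all elements and 0.209% of controls. Towards NSC 2 met it (0.189%, interval 0.0517 to 0.685), against 0.85% of all elements and 0.314% of controls. Of asc and unc elements, 1.76% and 2.75% met it towards IPC, and 0.439% and 0.475% towards NSC. Among the 18 desc elements, the largest mean difference towards IPC was that of IPC_210, 3.12 on the log2 scale. It stood at 3.27, 1.52, 1.87, 4.43 and 55.5 times the scrambled median in IPC from E13 to E17, and at 0.124, 0.875, 0.126, 1.14 and 0.732 in NSC. The groups did not overlap, and the value of 55.5 at E17 was the highest by far; without E17 the difference was 2.40 and its IPC mean 1.18 in place of 2.06. Next came IPC_1616 (2.05), IPC_623 (1.87), IPC_923 (1.86) and IPC_1590 (1.64). IPC_1616 stood at 4.88, 2.13, 7.79, 10.5 and 1.29 times in IPC against 0.199, 2.05, 2.04, 0.464 and 1.15 in NSC, and the groups overlapped. IPC_1590 stood at 5.03, 1.33, 2.89, 4.37 and 2.47 against 1.71, 0.431, 0.738, 0.879 and 0.912, and its groups overlapped too. Among single scrambled controls the mean difference ran from -2.49 to 2.63. Of the 5 elements named here, only IPC_210 lay beyond that range.

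In the other direction, IPC_1043 had the lowest mean difference IPC minus NSC of all 9886 non-scrambled elements with all values, -3.23. It stood at 10.5, 1.48, 7.55, 34.7 and 2.92 times the scrambled median in NSC and at 0.446, 1.02, 0.960, 0.595 and 0.339 in IPC, with no overlap. It had calls in 4 of 5 NSC columns and none in IPC. An element of the IPC class was thus the one with the widest gap towards NSC in the whole table. IPC_600 (-1.55) was the other, with 1.23, 3.14, 3.16, 12 and 0.717 in NSC against 0.187, 1.59, 0.848, 2.08 and 0.599 in IPC. The lowest single scrambled control had a difference of -2.49, so IPC_600 lay within the range of the controls and IPC_1043 beyond it.

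Complete separation of the cell types was rare. All 5 IPC values lay above all 5 NSC values in 8 desc elements (0.754%, against 0.799% of all elements and 0.419% of controls), and the reverse held in 4 (0.377%, against 0.668% of all elements). These shares are near or below those of all elements. Named after their values were seen, the 8 were IPC_210, IPC_427, IPC_623, IPC_965, IPC_1105, IPC_1274, IPC_1332 and IPC_1601, and the 4 were IPC_51, IPC_841, IPC_1043 and IPC_1434. Separation did not need strong activity. IPC_1105 stood at 1.89 to 2.18 times the scrambled median in every IPC column and at 0.306 to 1.50 in NSC, and had no call in any column.

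**Figure D5:**
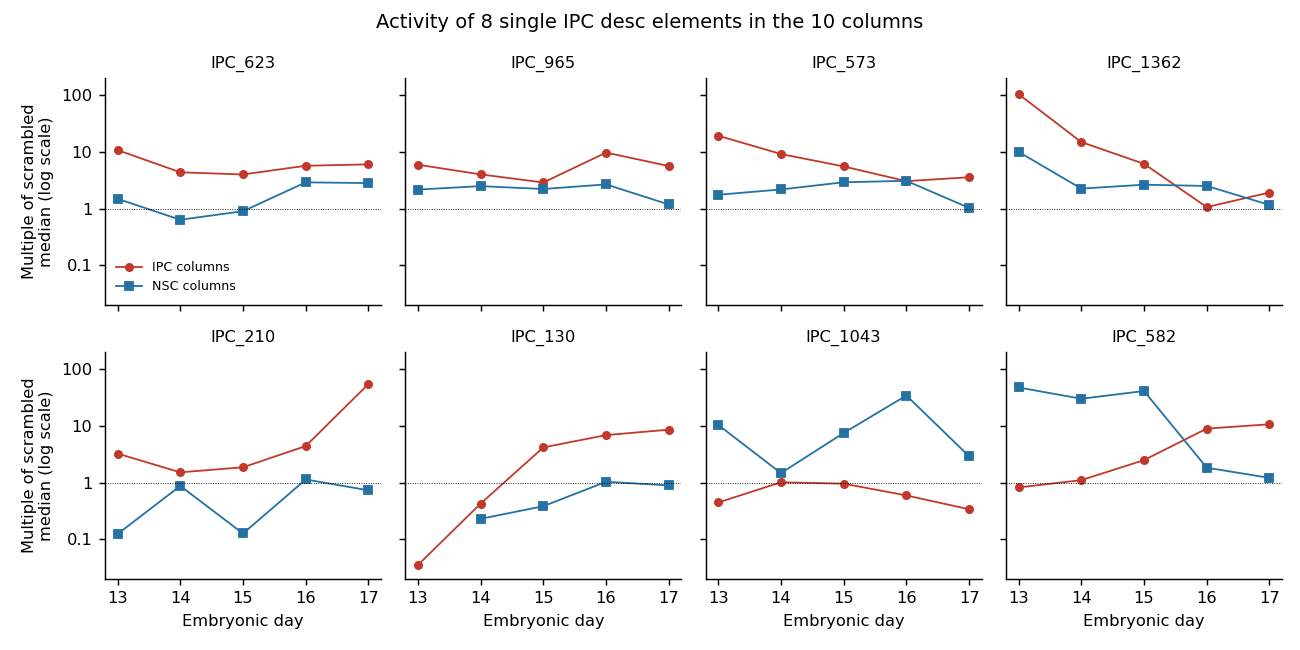
Activity of 8 desc elements as a multiple of the scrambled median (vertical axis, log scale) against collection age in embryonic days, with 1 point per column in IPC (circles) and NSC (squares). The dotted line marks the scrambled median, and IPC_130 has no NSC value at E13. IPC_623 and IPC_965 stay above their NSC values at every age, IPC_1362 falls from 105.8 to 1.06 between E13 and E16 in IPC, and IPC_582 runs in opposite directions in the 2 cell types.

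Single elements that were high early or high late in IPC both occurred. Called at E13 and E14 and at neither E16 nor E17 were 28 of 1071 desc elements in IPC (2.61%, interval 1.81 to 3.75), against 1.9% of all elements, 1.87% of asc, 3.81% of unc elements and 1.03% of controls. Called at E16 and E17 and at neither E13 nor E14 were 27 (2.52%, interval 1.74 to 3.64), against 2.15% of all elements, 3.88% of asc and 1.45% of controls. In NSC the counts were 16 (1.48%, against 1.72% of all elements) and 12 (1.11%, against 2.02% of all elements). The early and late lists were thus of nearly the same length in IPC.

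With calls in both early columns and both of these beyond both late values, 38 of 1071 desc elements were early-high in IPC (3.55%, interval 2.60 to 4.83), against 2.5% of all elements, 2.01% of asc, 4.74% of unc elements and 1.14% of controls. By the mirrored rule 33 were late-high (3.08%, interval 2.20 to 4.30), against 2.74% of all elements, 4.60% of asc, 3.63% of unc elements and 1.65% of controls. The largest late minus early values on the early side were those of IPC_1362 (-4.68), IPC_1384 (-3.65), IPC_1206 (-3.59) and IPC_461 (-3.52). Among single scrambled controls this value in IPC reached -4.74, so these 4 elements lay within the range of the controls. IPC_1384 went from 36.0 at E13 through 7.0 and 4.46 to 0.963 at E16 and 1.37 at E17, while its NSC values were 1.48 to 3.01. IPC_1206 went from 11.8 through 6.29 and 1.63 to 0.361 and 0.987, with 8.35 at E13 and 0.583 to 2.64 later in NSC. IPC_461 went from 4.06 through 2.29 and 1.27 to 0.151 and 0.188, and in NSC it stood at 0.534 to 3.24 with no such order. In all 4, the IPC value was lower at each age than at the one before from E13 to E16. The rule that picked them already places E13 and E14 above E16 and E17, so part of this order was set by it.

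On the late side were IPC_130 (4.90), IPC_846 (4.49), IPC_1246 (4.40) and IPC_448 (3.76), where the highest single scrambled control had 3.58. IPC_130 went from 0.035 at E13 through 0.427, 4.20 and 6.92 to 8.64 at E17 in IPC, a higher value at each age than at the one before. In NSC it had no value at E13 and stood at 0.230 to 1.04 later. IPC_846 stood at 0.287, 0.440, 1.67, 14.6 and 6.83 in IPC. IPC_1246 stood at 1.57, 0.161, 1.18, 15.2 and 12.1 in IPC and at 12.6 and 14.1 in NSC at E14 and E15. IPC_448 stood at 0.455, 0.464, 0.674, 15.1 and 3.57 in IPC and at 0.395 to 2.19 in NSC. The E13 level of IPC_130 lies below the pseudocount, so its log2 difference understates the change from that age.

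The age order could also run against itself between the cell types. Late above early in IPC with early above late in NSC held in 22 of 1062 desc elements (2.07%, against 2.63% of all elements and 2.18% of controls), and the reverse in 32 (3.01%, against 2.89% of all elements and 2.70% of controls). These shares are near those of all elements and of the controls. One of the 22, IPC_582, had the highest mean NSC activity of all 10162 non-scrambled elements with 5 NSC values (3.25). It was singled out after its values were seen. It stood at 48.1, 30.4, 41.6, 1.84 and 1.21 times the scrambled median in NSC from E13 to E17, and at 0.824, 1.11, 2.5, 9.02 and 10.8 in IPC. Its NSC values were above its IPC values by a wide margin to E15 and below them at E16 and E17. The highest single scrambled controls in NSC stood at 88.5, 54.0 and 82.8 at E13, E14 and E15, above IPC_582 at each of these ages. No control had a mean NSC activity above 1.91.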

How the data were processed

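The files used here hold 1 table of element activities. The submitters' processing notes name cutadapt, without a version, and mm10. The sources used here do not say how barcodes were aligned and counted. The first value is a deposited activity score named statistic, never negative and without a unit. The second is the authors' MAD score, checked to be the statistic minus the scrambled median over 1.4826 times the median absolute deviation. The third, the authors' deposited p-value, was checked to be the adjusted upper-tail normal p of that score. Each combines 2 or 3 biological samples, so samples could not be compared with each other.

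Each statistic was set as a multiple of its column's scrambled median. Log2 was taken after adding 0.1 and the column's scrambled mean was subtracted. An element without a needed value was left out of that measure. Single elements were named by 3 rules: the 8 highest IPC means; the 5 largest differences in each direction between cell types; and the 4 largest late minus early values in each direction in IPC, the last 2 with the calls and orders stated in the text. The members, lists and rules were chosen with earlier results of these data known. Scripts (Python 3.11.15, pandas 2.3.3, numpy 2.4.6) were tested on simulated data. Alternatives were the pseudocount, medians, thresholds, complete elements, the MAD score and leaving out ages.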

Additional observations from a re-analysis of the deposited data

Results flagged for a closer look

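The late minus early values of 2 desc elements ran in opposite directions in the 2 cell types, with both late ages above both early ages in IPC and below them in NSC. For IPC_582 they were 3.26 in IPC and -4.58 in NSC on the log2 scale. For IPC_1218 they were 2.42 in IPC and -3.62 in NSC. Both values of each element lie outside the limits that hold 95% of the scrambled controls, which is what set them apart from the other 20 elements of this order. Single controls ran from -4.74 to 3.58 in IPC and from -3.77 to 3.56 in NSC. Only the NSC value of IPC_582 lay beyond these ranges. IPC_1218 stood at 239.2, 5.92, 2.04, 5.49 and 1.59 times the scrambled median in NSC from E13 to E17 and at 0.403, 0.718, 0.662, 1.76 and 6.01 in IPC, so a single value at E13 gave most of its NSC difference. The difference between cell types was not tested, since each column holds 1 combined value.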

How the results depend on the processing

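No paired analysis was possible because each column combines its biological samples, so ages rather than replicates were left out. Of 125 alternative values, 107 moved by less than the 95% half-width over elements (means) or 1.5 times (counts), 18 moved further and 0 reversed a called direction. With a pseudocount of 1 the IPC mean at E17 was 0.25. Late minus early in IPC ranged from 0.062 to 0.22 with 1 age left out. Calls in at least 2 or 4 IPC columns numbered 246 and 22. Calls in at least 3 of the other 4 ranged from 33 to 43, by a rule that can only hold or lower the count. For NSC columns the counts were 149 and 4, 22 at the authors' adjusted p under 0.01, and 13 to 25 with 1 age left out. With a limit that 1% of controls exceed, 67 elements lay above it in IPC. IPC minus NSC was 0.086 without E17 to 0.16 without E14 and 0.097 with medians. Desc minus asc in IPC, small in any case, was -0.01 with medians and -0.004 without E13. NSC late minus early was -0.008 without E13 and -0.005 without E16. Signal in the E13 columns spreads most among controls in NSC (SD 1.60, against 0.67 at E17), which limits single values there.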
